A study of Homo sapiens with 148 samples.

Results

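The Notch signaling genes analyzed here were 3 ligand genes (DLL1, DLL3 and JAG1), 3 receptor genes (NOTCH1, NOTCH2 and NOTCH3) and 4 genes of the HES and HEY family of transcription factors (HES1, HES5, HES6 and HEY1). These 10 names were looked up among the 49085 gene names of the deposited expression table, and each had a single entry. RNA-seq was performed during the differentiation of H9, an established and unmodified human embryonic stem cell (hESC) line, into pancreatic islet organoids. The groups were undifferentiated hESCs, definitive endoderm (DE, day 4), primitive gut tube-like cells (PGT, day 7), pancreatic progenitors (PP, day 14), organoids with stem cell-derived β cells (SC-β organoids, day 35) and a stage labeled PH, whose meaning and day are not given in the sources used here. The medium supplements were Activin A, CHIR99021 and Y27632 before DE, KGF on the way to PGT, and then KGF, Sant1, retinoic acid, LDN193189, PdBU and Y27632 up to PP. Feeds from day 14 to day 20 contained XXI, a γ-secretase inhibitor, together with betacellulin, Alk5i II, the hormone T3, retinoic acid and, at first, Sant1, and later feeds held Alk5i II and T3. Whether the PP cells collected on day 14, or the PH cells, had received XXI is not given in the sources used here.

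Each stage had 2 replicates, but the table holds only the authors' mean per stage in TPM, a unit of transcript abundance that is corrected for transcript length and adds up to the same total in every library. The spread between replicates and the read depth are therefore unknown, no test between stages was possible, and neighboring values in any order of stages or genes given here cannot be told apart from replicate noise. Log2 ratios were computed after adding a pseudocount of 1 TPM, and differences that reached 2-fold after this step were counted. In each comparison the count for the 10 genes is given beside the share of all gene names that passed the same limit, among the names at 1 TPM or more in either of the 2 stages. HES5 was below 1 TPM in both stages in comparisons among hESCs, DE, PGT and PP, so only 9 of the 10 genes could be called there. A few structural RNAs took from 31.8% of the TPM total in DE to 50.9% in PH, and the levels of all other genes depend on that share. In bulk RNA, fewer cells of one type and less RNA per cell cannot be told apart.

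In Notch signaling, a ligand of the Delta (DLL) or Jagged (JAG) family on one cell binds a Notch receptor on its neighbor. The receptor is then cut by an ADAM protease and by γ-secretase, and its released intracellular part enters the nucleus, where it joins the DNA-binding protein RBPJ and a Mastermind (MAML) coactivator and turns on genes of the HES and HEY family. HES and HEY proteins are basic helix-loop-helix repressors that hold back differentiation, and in the developing pancreas HES1 restrains NEUROG3, the factor that starts endocrine differentiation. DLL3 and HES6 differ from their relatives, since DLL3 is mostly kept inside the cell and does not activate the receptor of a neighbor, and HES6 counteracts HES1.

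HES1 and HES5 are the best known direct targets of the pathway, and their upstream sequences are shown because these genes had very different levels across the stages. The sequences are the 250 bases before the RefSeq start of each gene on GRCh38.p14, read 5′ to 3′ on the strand of the gene, with the RBPJ motif (GTGGGAA, or TTCCCAC where it lies on the opposite strand) in capitals. They lie at chr1:2530264-2530513 on the reverse strand for HES5 and chr3:194135898-194136147 on the forward strand for HES1.
HES5: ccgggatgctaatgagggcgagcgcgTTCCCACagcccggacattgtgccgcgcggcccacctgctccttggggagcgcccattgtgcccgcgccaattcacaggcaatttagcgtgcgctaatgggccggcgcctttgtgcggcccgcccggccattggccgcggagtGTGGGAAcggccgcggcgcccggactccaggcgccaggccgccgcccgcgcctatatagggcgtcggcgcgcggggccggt
HES1: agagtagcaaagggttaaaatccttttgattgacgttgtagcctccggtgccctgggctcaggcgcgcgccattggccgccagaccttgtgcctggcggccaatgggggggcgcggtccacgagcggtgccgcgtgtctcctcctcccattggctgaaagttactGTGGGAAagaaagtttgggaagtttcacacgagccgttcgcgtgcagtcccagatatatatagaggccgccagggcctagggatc

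The HES5 sequence holds 2 matches to the exact GTGGGAA motif on either strand, starting 224 and 81 bases before the gene's start. The HES1 sequence holds 1, starting 85 bases before it. Variant forms of the RBPJ motif were neither searched nor marked, so these are not counts of all possible RBPJ sites. Among 35116 promoters in the RefSeq table, 5.43% had at least 1 match in the same window and 0.174% had at least 2. The upstream window was available for 7 of the 10 genes (DLL1, DLL3 and HEY1 were not in the table), and JAG1, NOTCH1, NOTCH2, NOTCH3 and HES6 had no match. The N-box (CACNAG on either strand), a motif that HES repressors bind, was found 3 times in the HES1 window, once in that of NOTCH3 and not in that of HES5, and 32.0% of all promoters held it. The motifs do not overlap in these windows, and a match gives letters only and not a bound site.

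Among the ligands, JAG1 had the highest level in every stage except PGT and PH, where DLL1 was above it. DLL1 (ENSG00000198719.9), the Delta ligand that signals from differentiating cells to their neighbors, lies on the reverse strand of chromosome 6 from 170282206 to 170306565. Its mean level was 0.619 TPM in hESCs, 2.69 TPM in DE, 21.9 TPM in PGT, 8.10 TPM in PP, 76.5 TPM in PH and 4.20 TPM in SC-β organoids. PH was 3.49 times the next highest stage, PGT, so that DLL1 had 2 separate high points with a lower level in PP. DLL3 (ENSG00000090932.11, chromosome 19, 39498895 to 39508481, forward strand) had 3.57 TPM in hESCs, 1.00 TPM in DE, 0.746 TPM in PGT, 1.11 TPM in PP, 24.2 TPM in PH and 1.52 TPM in SC-β organoids. It was low in all stages outside PH, and its second highest level was that of hESCs. JAG1 (ENSG00000101384.12, chromosome 20, 10637684 to 10673999, reverse strand), a Jagged ligand, was at 16.8 TPM in hESCs, 12.3 TPM in DE, 7.74 TPM in PGT, 49.6 TPM in PP, 59.6 TPM in PH and 51.1 TPM in SC-β organoids. PP, PH and SC-β organoids were close together and all above hESCs, DE and PGT, and unlike DLL1 and DLL3, JAG1 in PH was only 1.17 times the next stage.

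The receptors were present in all 6 stages, and both their levels and the balance among them varied. NOTCH1 (ENSG00000148400.13, chromosome 9, 136494433 to 136546048, reverse strand) was at 5.70 TPM in hESCs, 4.404 TPM in DE, 5.38 TPM in PGT, 9.30 TPM in PP, 62.8 TPM in PH and 18.5 TPM in SC-β organoids. It was the lowest of the 3 receptors everywhere but in PH, where it was the highest. NOTCH2 (ENSG00000134250.21, chromosome 1, 119911553 to 120100779, reverse strand) was at 27.1 TPM in hESCs, 60.9 TPM in DE, 29.6 TPM in PGT, 35.5 TPM in PP, 48.5 TPM in PH and 97.1 TPM in SC-β organoids. Its value is uncertain to the extent that reads were shared with the near-identical partial copies listed under the older name NOTCH2NL, whose own level was between 4.87% (DE) and 10.1% (PH) of that of NOTCH2. NOTCH3 (ENSG00000074181.9, chromosome 19, 15159038 to 15200995, reverse strand) was at 15.8 TPM in hESCs, 56.99 TPM in DE, 41.0 TPM in PGT, 35.04 TPM in PP, 36.8 TPM in PH and 48.5 TPM in SC-β organoids. All stages after hESCs had it well above the level of hESCs, with DE at the top.

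Of the HES and HEY factors, HES5 had the widest range of the 10 genes on the log2(TPM + 1) scale, while HES1, HES6 and HEY1 each had a narrower range than DLL1 and DLL3. HES1 (ENSG00000114315.4, chromosome 3, 194136148 to 194138732, forward strand) had 14.3 TPM in hESCs, 12.4 TPM in DE, 68.7 TPM in PGT, 44.4 TPM in PP, 46.5 TPM in PH and 49.99 TPM in SC-β organoids. Its level was low in hESCs and DE and high in the other 4 stages. HES5 (ENSG00000197921.6, chromosome 1, 2528745 to 2530263, reverse strand), a target typical of neural progenitors, was at 0.0494 TPM in hESCs, listed at 0 in DE and PGT, and at 0.0882 TPM in PP, 109.8 TPM in PH and 1.51 TPM in SC-β organoids. In PH it was 72.8 times the next highest stage and ranked 500 among all gene names, and it had the highest level of the 10 genes there. HES6 (ENSG00000144485.11, chromosome 2, 238238267 to 238240662, reverse strand) was at 20.3 TPM in hESCs, 6.42 TPM in DE, 8.08 TPM in PGT, 15.1 TPM in PP, 68.6 TPM in PH and 6.32 TPM in SC-β organoids. Like DLL3, it was highest in PH with hESCs next. HEY1 (ENSG00000164683.19, chromosome 8, 79762371 to 79767857, reverse strand), a relative of the HES factors best known from blood vessels and heart, was at 0.720 TPM in hESCs, 1.53 TPM in DE, 10.4 TPM in PGT, 15.2 TPM in PP, 10.5 TPM in PH and 22.6 TPM in SC-β organoids. It was the only factor of these 4 with its highest level in SC-β organoids.

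**Figure D1:**
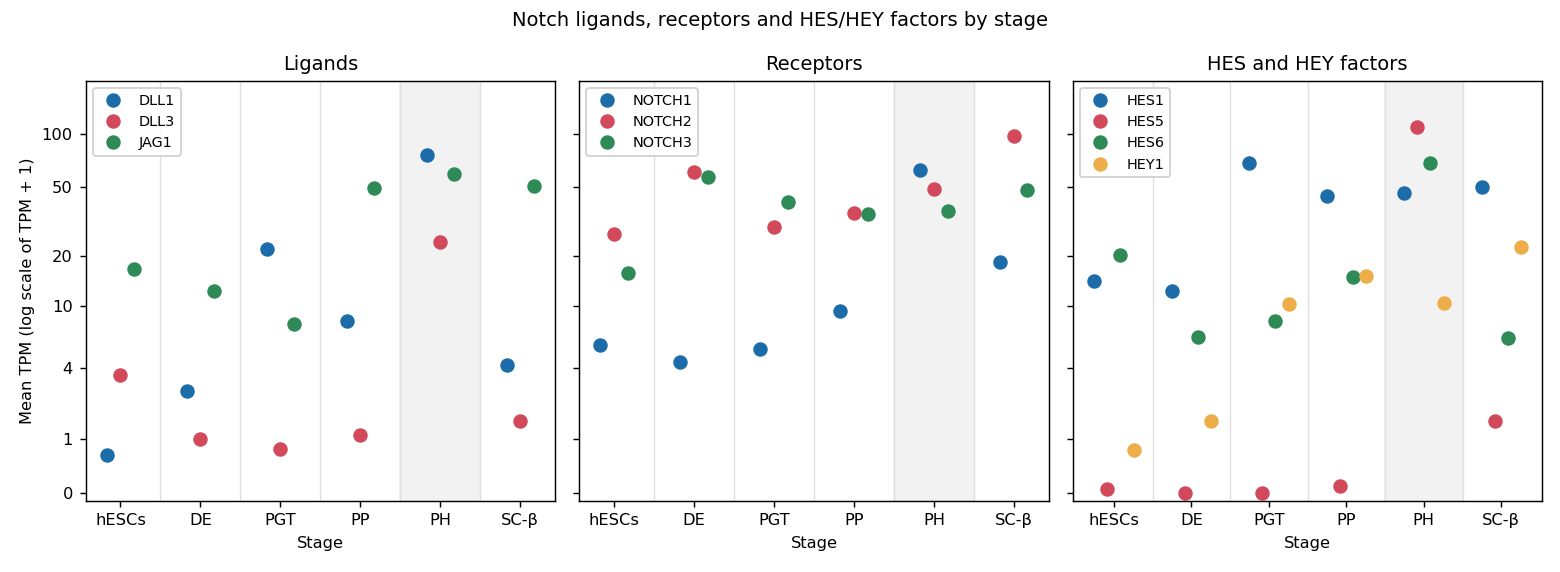
Mean TPM of the 10 genes in each stage, on a log axis of TPM + 1, with 1 point per gene and stage (the authors' mean of 2 replicates, no error available) and PH shaded. DLL1, DLL3, NOTCH1, HES5 and HES6 stand highest in PH, whereas JAG1 and HES1 have similar levels in PP, PH and SC-β organoids.

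Since TPM is per length, the levels of different genes could be added within a stage. The 3 ligands summed to 20.998 TPM in hESCs, 16.01 TPM in DE, 30.4 TPM in PGT, 58.8 TPM in PP, 160.4 TPM in PH and 56.8 TPM in SC-β organoids. JAG1 made up 89.9% of that sum in SC-β organoids, 84.3% in PP, 80.1% in hESCs and 77.0% in DE, but 37.2% in PH and 25.5% in PGT. DLL1 took the largest share in PGT, with 72.1%, and in PH, with 47.7%. PGT and PH were thus the 2 stages in which a Delta ligand led, at ligand sums of 30.4 and 160.4 TPM. DLL3 held 17.0% of the sum in hESCs and 15.1% in PH, and less in the other stages.

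The receptor sum was lowest in hESCs, at 48.6 TPM, and highest in SC-β organoids, at 164.1 TPM, with 122.3 TPM in DE, 76.0 TPM in PGT, 79.9 TPM in PP and 148.0 TPM in PH. NOTCH2 led in hESCs (55.7%), DE (49.8%), PP (44.5%) and SC-β organoids (59.2%), NOTCH3 led in PGT (54.0%) and NOTCH1 led in PH (42.4%). In DE and PP the shares of NOTCH2 and NOTCH3 lay close together. NOTCH1 held between 3.6% (DE) and 11.7% (hESCs) of the sum in the 5 other stages.

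The 4 HES and HEY factors summed to 35.4 TPM in hESCs, 20.4 TPM in DE, 87.2 TPM in PGT, 74.8 TPM in PP, 235.5 TPM in PH and 80.5 TPM in SC-β organoids. HES6 led in hESCs with 57.3%, HES5 led in PH with 46.7%, and HES1 led in the remaining stages with 78.8% in PGT, 62.1% in SC-β organoids, 61.0% in DE and 59.3% in PP. HES1 made up 19.8% of the sum in PH although its level there, 46.5 TPM, was close to that in PP. The share of HEY1 was 2.04% in hESCs and 28.1% in SC-β organoids.

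**Figure D2:**
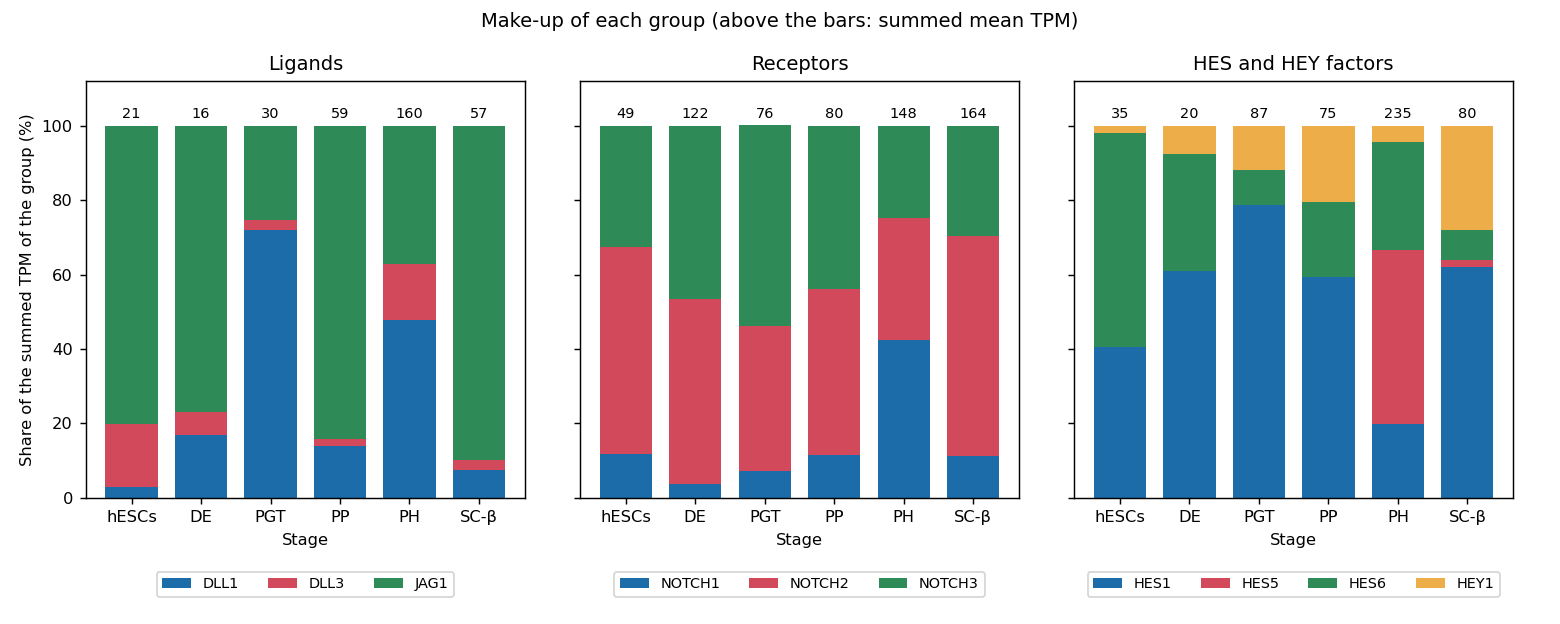
Share of each gene in the summed mean TPM of its group, in percent, for the ligands, receptors and HES and HEY factors in each stage, with the sum in TPM printed above each bar. DLL1 leads the ligands in PGT and PH, NOTCH1 leads the receptors only in PH, and HES5 is a visible part of the HES and HEY sum only in PH (46.7%) and, at 1.88%, in SC-β organoids.

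The comparisons with hESCs ask how the pathway's genes differed from the starting cells. In DE, NOTCH3 (log2 ratio 1.79), DLL1 (1.19) and NOTCH2 (1.14) were at least 2-fold higher than in hESCs, and HES6 (-1.52) and DLL3 (-1.19) were at least 2-fold lower. These are 3 and 2 of the 10 genes, beside 28.2% of gene names higher and 5.55% lower. Gene names as a whole were higher in DE, with a median log2 ratio of 0.58 over those tested and -0.13 over the 10 genes. After a rescaling that brought the median ratios between stages together, 16.2% of names were higher and 10.7% lower, and DLL1 (0.93) and NOTCH2 (0.67) were no longer 2-fold higher. NOTCH2 was also just under the limit (0.997) with totals recomputed without structural and mitochondrial RNAs.

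In PGT, DLL1 (log2 ratio to hESCs 3.82), HEY1 (2.73), HES1 (2.19) and NOTCH3 (1.32) were at least 2-fold higher, and DLL3 (-1.39), HES6 (-1.23) and JAG1 (-1.03) at least 2-fold lower. Beside these 4 and 3 of 10 genes, 23.4% of gene names were higher and 10.0% lower (16.3% and 14.6% after the rescaling), and the median was 0.03 over the 10 genes and 0.41 over all names tested. In PP, HEY1 (3.23), DLL1 (2.49), HES1 (1.57), JAG1 (1.51) and NOTCH3 (1.10) were higher and DLL3 (-1.12) was lower. The background was 18.9% higher and 9.63% lower (14.7% and 13.2% after the rescaling, which took NOTCH3 to 0.87), and the medians were 0.86 over the 10 genes and 0.31 over all names.

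In PH, all of the 10 genes except NOTCH2 (0.82) were at least 2-fold higher than in hESCs, and none was lower. The largest log2 ratios were those of HES5 (6.72), DLL1 (5.58) and NOTCH1 (3.25), followed by HEY1 (2.74) and DLL3 (2.47). The background for these 9 of 10 genes was 27.3% of names higher and 18.9% lower, and the median log2 ratio was 2.12 over the 10 genes and 0.28 over all names. With totals recomputed without the structural and mitochondrially encoded RNAs, 35.9% of names were higher and 15.1% lower, and NOTCH2 reached 1.10.

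In SC-β organoids, 8 of the 10 genes were at least 2-fold higher than in hESCs and HES6 (-1.54) was lower, leaving DLL3 at -0.86. HEY1 had the largest log2 ratio, 3.78, and those of DLL1, JAG1, the 3 receptors, HES1 and HES5 lay between 1.26 (HES5) and 1.80 (NOTCH2). This stage also had the highest background, with 42.4% of names higher and 7.08% lower, and the median was 1.55 over the 10 genes and 0.83 over all names. After the rescaling these shares were 29.4% and 13.3%, and DLL3 was past the limit at -1.22.

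**Figure D3:**
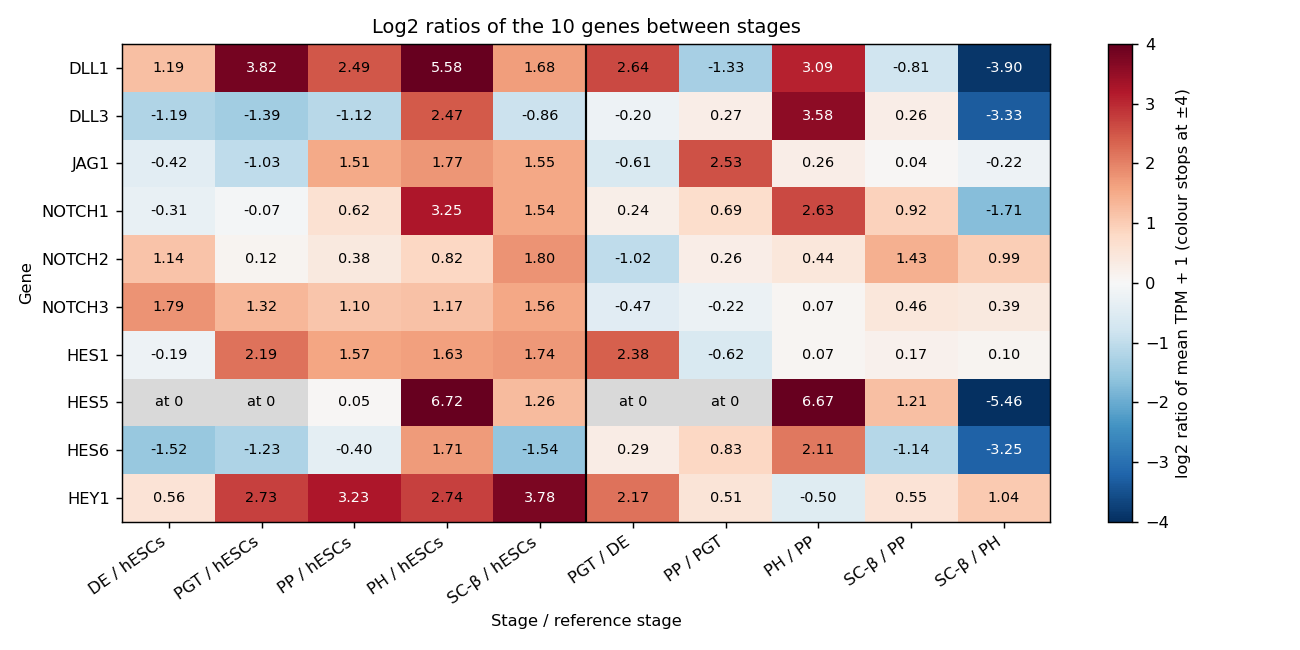
Log2 ratio of mean TPM + 1 for the 10 genes (rows) in 10 comparisons of stages (columns, stage / reference), with the comparisons against hESCs left of the line and "at 0" where HES5 was listed at 0 in either stage. In the PH column against PP, 5 genes exceed 2 and the other 5 lie between -0.50 and 0.44.

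Comparisons between stages other than hESCs ask where else the genes differed. From DE to PGT, DLL1 (log2 ratio 2.64), HES1 (2.38) and HEY1 (2.17) were higher, beside 4.94% of gene names, and NOTCH2 (-1.02) was lower, beside 10.6%. NOTCH2 was no longer past the limit after the rescaling (-0.87) or with totals recomputed without structural and mitochondrial RNAs (-0.94). From PGT to PP, JAG1 (2.53) was the only one of the 10 genes at least 2-fold higher, beside 6.3% of names, and DLL1 (-1.33) the only one lower, beside 7.46%. The ligand with the highest level thus differed between these 2 stages while the 3 receptors had log2 ratios between -0.22 and 0.69. HES1 was at -0.62 and HEY1 at 0.51 in the same comparison.

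PH was compared with PP and with SC-β organoids, its neighbors in the column order of the table. Against PP, HES5 (6.67), DLL3 (3.58), DLL1 (3.09), NOTCH1 (2.63) and HES6 (2.11) were at least 2-fold higher and none of the 10 genes was lower, where 11.5% of gene names were higher and 12.8% lower (14.9% and 9.67% after the rescaling). The other 5 genes lay between -0.50 (HEY1) and 0.44 (NOTCH2), and the medians were 1.27 over the 10 genes and -0.10 over all names. SC-β organoids set against PH had the same 5 genes lower, at log2 ratios of -5.46 for HES5, -3.90 for DLL1, -3.33 for DLL3, -3.25 for HES6 and -1.71 for NOTCH1, where 4.6% of names were lower. HEY1 (1.04) was higher in SC-β organoids, beside 28.1% of names, but not after the rescaling (0.58), under which 16.1% of names were higher and 8.42% lower. These 5 genes were also at least 2-fold above every other stage in PH, as were 2.63% of the 28202 names at 1 TPM or more in some stage, and no other stage stood 2-fold above the rest for any of the 10 genes. These comparisons share the PH values, and HES5 was already known from earlier work on this table as one of its PH genes.

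Markers of neural progenitors were, like these 5 genes, higher in PH than in PP, but they followed them less closely from PH to SC-β organoids. All 10 neural markers examined were at least 2-fold higher in PH than in PP, and their summed level was 461.8 TPM in PP, 2045 TPM in PH and, in SC-β organoids, 2030 TPM, of which VIM alone made up 352.9, 1437 and 1767 TPM. Relative to SC-β organoids, 6 of the 10 were lower there than in PH (FABP7, POU3F2, SOX1, SOX3, MSI1 and DCX) and none was higher, and no neural marker was at 0 in PH. In hESCs, DE and PGT the neural sum lay between 98.4 and 366.3 TPM. Among 8 mural and mesenchymal markers, 5 were higher and 2 lower in PH than in PP, with sums of 471.0 and 66.6 TPM, and the sum was highest in SC-β organoids at 1097 TPM. The 8 endothelial markers summed to 12.7 TPM in PH and 13.6 TPM in PP, and 3 of them reached 1 TPM in either stage. Of the 8, 1 was at least 2-fold higher in PH and 0 were lower. The higher one was KDR, at 4.72 TPM in PH against 1.61 TPM in PP, whereas PECAM1 was at 0.0182 TPM and CDH5 at 0.132 TPM in PH. The pancreatic markers PDX1 and NKX6-1 were at 0.0173 and 0.256 TPM in PH, against 3.17 and 2.204 TPM in PP. PTF1A, by contrast, was at least 2-fold higher in PH, at 7.61 TPM against 1.02 TPM in PP, and SOX9 was at 27.2 TPM against 23.7 TPM. The hormone genes INS (6.86 TPM in PH, 6.93 TPM in PP) and GCG (27.2 TPM in PH, 16.5 TPM in PP) differed by less than 2-fold. Of the 5 SC-β organoid markers that include these, 1 was at least 2-fold lower in PH than in PP and 0 were higher. The gut tube markers HNF4A and FOXA1 were both at least 2-fold lower in PH than in PP, and none of 6 duct and acinar markers differed 2-fold. In the other stages the markers were mostly where the labels place them, with POU5F1 at 1449 TPM in hESCs, SOX17 at 96.1 TPM in DE and FOXA1 at 86.0 TPM in PGT. The part of these cell types in the levels of the Notch genes was not tested.

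SC-β organoids set against PP had NOTCH2 (1.43) and HES5 (1.21) higher, beside 20.7% of gene names, and HES6 (-1.14) lower, beside 1.84%. DLL1, at -0.81, passed the lower limit after the rescaling (-1.03), under which 14.3% of names were higher and 3.07% lower, and JAG1 (0.04) and HES1 (0.17) were nearly level. The median was 0.36 over the 10 genes and 0.45 over all names. Hormone genes marked this stage, with INS at 298.1 TPM and GCG at 2793 TPM, whereas the β-cell factor MAFA was at 0.401 TPM and PDX1 at 1.57 TPM. NKX6-1, by contrast, had its highest level in this stage, at 5.37 TPM against 2.204 TPM in PP. Of the mural and mesenchymal markers, 7 of 8 were higher in SC-β organoids than in PP, none of them was at 0, and their part in the level of NOTCH2 was not tested. The mesenchymal sum, mostly COL3A1, was highest in this stage, although RGS5 of the same list was highest in PGT and COL1A1 in PH. In DE and PH, NOTCH2 was at 60.9 and 48.5 TPM and that sum at 47.8 and 471.0 TPM. KRT19, a duct marker, was at 230.6 TPM in SC-β organoids and 170.5 TPM in PP.

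The other genes of the pathway, 41 in all, were counted from a list of ligands, a receptor, enzymes, nuclear partners, negative regulators and further HES and HEY factors. Depending on the comparison, 35 to 39 of the 41 were at 1 TPM or more in either stage, and the rest could not be called. In PH against PP, 8 of them were at least 2-fold higher and 3 lower, beside 11.5% of gene names higher and 12.8% lower. Their median log2 ratio was 0.01. The 8 were DNER, LFNG, MFNG, NEURL1B, NUMBL, DTX1, NRARP and HES4. Against hESCs, 12 were higher and 2 lower in DE, 11 and 3 in PGT, 6 and 2 in PP, 16 and 4 in PH, and 16 and 1 in SC-β organoids. The shares of all names at least 2-fold higher in these comparisons were 28.2% (DE), 23.4% (PGT), 18.9% (PP), 27.3% (PH) and 42.4% (SC-β organoids). The shares lower were 5.55%, 10.0%, 9.63%, 18.9% and 7.08%, in the same order. The counts of higher genes were thus near or below the background in DE, PGT, PP and SC-β organoids, and those of lower genes in every stage. Between neighboring stages, 3 were higher and 0 lower in PGT than in DE, beside 4.94% and 10.6% of names. In PP relative to PGT, 2 were higher and 3 lower, beside 6.3% and 7.46%. SC-β organoids relative to PP had 4 higher and 1 lower, beside 20.7% and 1.84%. SC-β organoids relative to PH had 5 higher and 7 lower, beside 28.1% and 4.6%.

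Among the further ligands, DLK1, a Delta-like protein without the receptor-activating domain, was at 0.373 TPM in hESCs, 18.7 TPM in DE, 207.6 TPM in PGT, 104.6 TPM in PP, 15.9 TPM in PH and 18.7 TPM in SC-β organoids. It was therefore highest in PGT, like HES1. DNER, a Delta-like protein of neurons, was at 45.8 TPM in PH, 9.96 TPM in SC-β organoids and at most 1.10 TPM elsewhere. DLL4 and JAG2 did not exceed 1.77 and 3.11 TPM in any stage, and the receptor NOTCH4 did not exceed 4.37 TPM, in each case below NOTCH2, NOTCH3 and JAG1 in the same stage.

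The Fringe enzymes, which add sugars to Notch and tune its response to Delta and Jagged ligands, differed in pattern. LFNG was at 5.13 TPM in hESCs, 28.5 TPM in DE, 37.4 TPM in PGT, 3.78 TPM in PP, 24.0 TPM in PH and 6.18 TPM in SC-β organoids. PGT, DE and PH, in that order, had its highest levels, and PGT and PH were also the stages in which DLL1 exceeded JAG1. MFNG was at 16.7 TPM in PH and at most 1.83 TPM elsewhere, whereas RFNG lay between 7.89 and 17.2 TPM and POFUT1 between 15.4 and 39.7 TPM. Of the ubiquitin ligases that activate ligands, MIB1 lay between 30.7 TPM (hESCs) and 75.7 TPM (PH), and MIB2 between 7.18 and 31.1 TPM. NEURL1 was lowest in DE, at 0.255 TPM, and highest in SC-β organoids, at 15.7 TPM, and NEURL1B did not exceed 5.17 TPM.

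The proteases that cut the receptor were expressed in all stages, and none of the 9 was at least 2-fold higher in PH than in PP while FURIN was lower. FURIN, which cleaves the receptor during its maturation, was at 18.9 TPM in hESCs, 47.4 TPM in DE, 46.2 TPM in PGT, 18.3 TPM in PP, 6.52 TPM in PH and 15.5 TPM in SC-β organoids. ADAM10 lay between 22.4 TPM (hESCs) and 60.0 TPM (DE), ADAM17 between 20.2 and 46.5 TPM, and PSENEN, a γ-secretase subunit, between 12.6 and 25.1 TPM. In the nuclear complex, RBPJ was between 38.0 TPM (PP) and 57.9 TPM (SC-β organoids), and none of the 5 genes differed 2-fold between PH and PP. MAML3 was at 6.37 TPM in hESCs and between 14.8 and 29.2 TPM in the other stages. MAML2 and SPEN had their highest levels in SC-β organoids, at 20.4 and 53.1 TPM, as did MAML1 at 28.1 TPM.

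Of the 6 negative regulators, NRARP, DTX1 and NUMBL were at least 2-fold higher in PH than in PP. NRARP, a target gene whose protein limits Notch signaling, was at 5.27 TPM in hESCs, 3.43 TPM in DE, 2.35 TPM in PGT, 2.00 TPM in PP, 16.3 TPM in PH and 2.85 TPM in SC-β organoids. DTX1, a ubiquitin ligase of the pathway, was at 16.7 TPM in PH and at most 2.91 TPM elsewhere, and NUMBL was at 14.3 TPM in PH and at most 8.13 TPM elsewhere. FBXW7, which marks the active receptor for breakdown, was highest in SC-β organoids at 51.9 TPM. Of the further HES and HEY factors, HES4 was at 32.2 TPM in PH and between 0.834 and 4.62 TPM elsewhere, and HEY2 did not exceed 6.66 TPM.

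**Figure D4:**
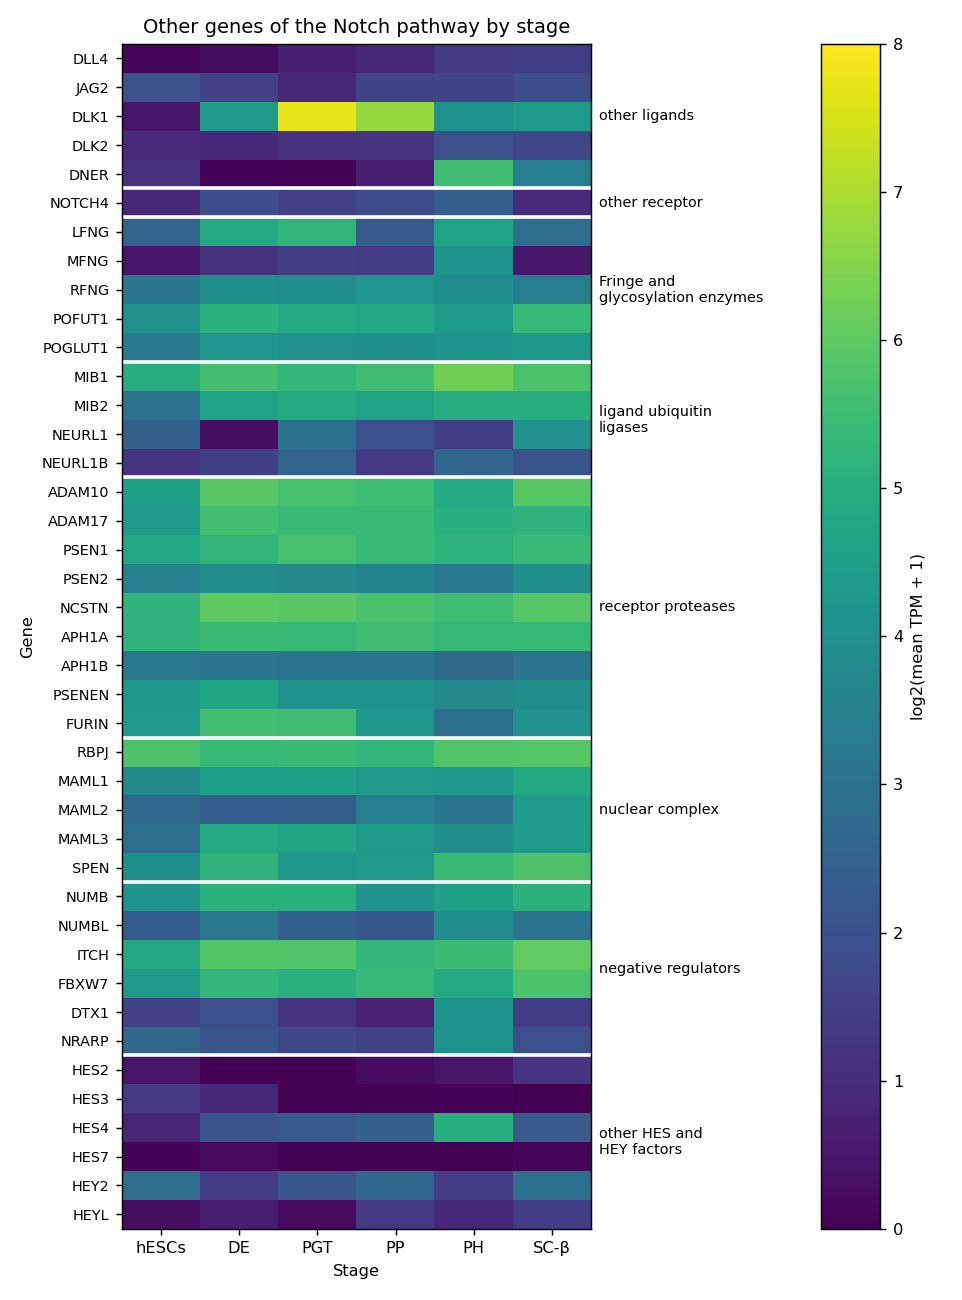
log2(mean TPM + 1) of 41 other Notch pathway genes (rows, by function) in each stage (columns), from dark at 0 to yellow at 8. RBPJ and the receptor proteases other than FURIN vary little in color across stages, whereas DNER, MFNG, DTX1, NRARP and HES4 are brightest in PH and DLK1 in PGT and PP.

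HES factors act against proneural and proendocrine transcription factors, and the levels of these were set beside them. INSM1, NEUROG2 and ATOH1 were at least 2-fold higher in PH than in PP. ATOH1, however, had its highest level in PGT, at 9.69 TPM, with 5.53 TPM in PH and 0.0888 TPM in PP. NEUROG2 was at 19.6 TPM and INSM1 at 26.5 TPM in PH, and each was lower in the other 5 stages, at most 6.83 TPM (PP) and 8 TPM (SC-β organoids). NEUROD1 had its highest level in SC-β organoids, at 20.98 TPM, and NEUROG3 did not exceed 0.602 TPM. High levels of HES5 and of NEUROG2 were thus found in the same stage, in bulk RNA that does not show whether the same cells held both.

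Likeness of pattern was described by Pearson's r of log2(TPM + 1) over the 6 stage means. It carries no test, since it rests on 6 values and all genes share the TPM totals. For genes far higher in PH than elsewhere, such as HES5, r depends largely on that stage. Among the 45 pairs of the 10 genes, 4 had r of at least 0.9, namely NOTCH1 and HES5 (0.94), DLL3 and HES5 (0.93), DLL3 and HES6 (0.93), and HES1 and HEY1 (0.91), and the median was 0.44. In the first 3 of these pairs both genes had their highest level in PH. Among 12142 other names at 10 TPM or more in some stage, the 2 closest to DLL1 were FAM110A (0.99) and VPS37D (0.99), and INA (0.995) was among the closest to DLL3. JAG1 was closest to SKAP2 (0.99) and HOTAIRM1_5 (0.98), and HES1 to RGS4 (0.996) and HS3ST3B1 (0.98). NOTCH1 was closest to GAD2 (0.997), NOTCH2 to PIAS2 (0.995) and SEMA5A (0.99), and NOTCH3 to ZNF236 (0.996) and GLI4 (0.99). HES5 was closest to MYT1L (0.9999) and ACTL6B (0.999), HEY1 to MED8 (0.99) and FNIP2 (0.99), and HES6 to HIST1H2BB (0.97) and SYT11 (0.95). Between 2 names (HES6) and 204 names (NOTCH3) reached an r of 0.95 with a given gene.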

How the data were processed

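The series lists 148 samples, of which the 12 RNA-seq samples (2 per stage) were used; the other assays are not used here. The authors aligned reads to hg38 with HISAT2 (version 2.2.0), computed TPM per gene with StringTie (version 2.1.6) and deposited the mean TPM of each stage; the annotation is not given in the sources used here. The study's methods name RiboMinus depletion and the labels an mRNA kit. Entries sharing a name were summed (50451 entries, 49085 names, 231 of them repeated). Stages were matched to columns by the sample titles and descriptions.

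Log2 ratios used a pseudocount of 1 TPM, with a 2-fold limit over names at 1 TPM or more in either stage, since names below that cannot reach 2-fold. Alternatives were a pseudocount of 0.1 TPM, median-ratio rescaling over 13938 names, totals without mitochondrially encoded RNAs and RN7SK, RN7SL1, RN7SL2, RMRP, RPPH1 and Metazoa_SRP, a 4-fold limit, the highest entry per name, and all names as background. Gene positions are from GENCODE version 44 on GRCh38 (hg38), and upstream sequences from RefSeq (GRCh38.p14). Named were all 10 genes, up to 4 genes per pathway list at 5 TPM or more with the widest range, genes that a count or a check of cell type turned on, and up to 2 genes most alike in pattern (clone names, and those starting with LOC or LINC, left out). Some genes that this rule covers are not reported here. The genes and lists were chosen with earlier results of these data known. The calculation was run on simulated data with 200 names changed 4-fold. Such changes pass a 2-fold limit by construction, so this checks the code only and not noise between replicates. Python 3.11.15, numpy 2.4.6, pandas 2.3.3, scipy 1.17.1 and matplotlib 3.10.9 were used.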

Additional observations from a re-analysis of the deposited data

How the results depend on the processing

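No paired analysis was possible because the table holds 1 mean per stage, and for the same reason no replicate could be left out and depth limits cannot be given. After median-ratio rescaling, 3 of the 10 genes in place of 5 differed 2-fold between DE and hESCs, and the log2 scaling factors were -0.275 for hESCs and 0.208 for DE. A 4-fold limit, stricter by construction, left 0 genes in DE, 3 in PGT, 2 in PP, 5 in PH and 1 in SC-β organoids against hESCs, 1 in PP against PGT, 0 in SC-β organoids against PP, and 2 (DLL3 and HES5) in place of 5 standing above every other stage in PH. The pseudocount of 0.1 TPM, the totals without structural and mitochondrial RNAs, the highest entry per name and the wider background kept each of the 10 counts within 1.5 times, and the 5 genes standing above every other stage in PH were 5 under the other scalings and the smaller pseudocount, which were chosen for that count after seeing the data. No log2 ratio to hESCs that passed 2-fold changed sign under the smaller pseudocount or the 2 scalings. With DLL4 and JAG2, NOTCH4 or the further HES and HEY factors added to the sums, the share of JAG1 in hESCs was 69.5%, that of HES6 in hESCs 45.3% and that of HES1 in DE 46.0%, each still the largest, and the leading gene was the same in all 18 sums; adding NOTCH2NL to NOTCH2 moved no receptor share by over 10 points. Spearman's rho differed from r by over 0.1 for 4 of the 20 likeness pairs, those of JAG1 (0.829 and 0.812) and HES6 (0.771 and 0.829).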
